A study of Mus musculus with 6 samples.

Results

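The 10 genes described here move sodium, chloride, sulfate, or protons across the colonic epithelium: Atp12a, Scnn1a, Scnn1b, Scnn1g, Slc9a2, Slc9a3, Slc26a2, Slc26a3, Cftr, and Slc12a2. They were picked by symbol from the 27546 genes of the deposited table, with their difference between the genotypes already known, so that difference is described and not tested. RNA-Seq was performed on distal colon tissue, as labelled, from 3 mice that lack the long noncoding RNA Gm31629 (Gm31629-/-) and from 3 WT littermates, with 1 library per mouse. The knockout was a deletion in all tissues on a C57BL/6J background, given as C57BL/6 in the labels. Mice of both genotypes were 8 weeks old, drank 3% dextran sulfate sodium (DSS), a polymer that injures the colonic lining, over 7 days, and were killed on day 8. No untreated mice were among the libraries, so every value is a level in the injured colon. The level of a gene is its FPKM, the fragments mapped to it scaled to the length of its exons and to the mapped fragments of the library. Levels can therefore be set side by side between genes of a library. Between mice, differences also depend on how the libraries are scaled, and results with other scalings are given below.

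The colon recovers salt and water along 2 routes. In one, the sodium/proton exchangers NHE2 (Slc9a2) and NHE3 (Slc9a3) work beside the chloride/bicarbonate exchanger DRA (Slc26a3), so that sodium and chloride enter together without net charge. In the other, the epithelial sodium channel ENaC, assembled from an alpha (Scnn1a), a beta (Scnn1b), and a gamma (Scnn1g) subunit, lets sodium in alone, mostly in the distal colon and under the control of aldosterone. Fluid secretion runs the opposite way: the basolateral cotransporter NKCC1 (Slc12a2) loads chloride into the cell and the apical channel CFTR (Cftr) releases it, while potassium channels keep the driving force. Atp12a encodes the catalytic subunit of the nongastric proton/potassium ATPase, which secretes protons and takes up potassium at the apical surface, and Slc26a2 encodes a sulfate transporter that is abundant in colonocytes.

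Before the transport genes, the tissue itself differed between the genotypes, and these values bear on every difference that follows. Epcam, a marker of all epithelial cells, lay between 1007 and 1164 FPKM in WT libraries and between 990.2 and 1179 in Gm31629-/- libraries. The summed level of 15 epithelial markers was 12973 to 14171 FPKM in WT mice and 8094 to 9589 in Gm31629-/- mice, and that of 10 smooth muscle markers was 19.1 to 35.3 in WT mice and 1129 to 1728 in Gm31629-/- mice. Neuronal and glial markers, 12 genes, summed to 2.71 to 4.75 FPKM in WT mice and to 46.1 to 199 in Gm31629-/- mice, with Elavl4 at 0 in all WT libraries. Neutrophil markers, 8 genes, summed to 11.2 to 14.0 FPKM in WT mice and to 111 to 282 in Gm31629-/- mice. Thus muscle, nerve, and neutrophil transcripts were low in the WT libraries, and the epithelial sum did not overlap between the groups. Krt8 and Krt19 carried much of that sum's difference, with means of 4198 and 2068 FPKM in WT and 2042 and 1042 in Gm31629-/- mice. Of the 15 markers, 9 were lower and 1, Tspan8, was higher in every Gm31629-/- mouse. Over the 14657 genes tested below, these shares were 21.5% and 36.3%. Cdh1 averaged 405 FPKM in WT and 395 in Gm31629-/- mice.

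The position along the colon also differed by its markers. Hoxd13 and Hoxd12, homeobox genes of the hindgut's distal end, were at 0 in all 3 WT libraries, whereas Hoxd13 stood at 8.12, 19.2, and 16.4 FPKM in the Gm31629-/- libraries. Osr2, which marks the proximal colon, stood at 77.0, 95.9, and 106 FPKM in WT mice and at 0.820, 1.20, and 0.663 in Gm31629-/- mice. The 4 proximal markers together reached 101 to 153 FPKM in WT mice and 3.78 to 5.66 in Gm31629-/- mice, and the 5 distal markers found in the table reached 43.2 to 61.5 and 101 to 192 FPKM. The WT libraries therefore went against their distal label by these markers, although Hoxb13, another distal gene, was present in them at 13.3, 5.66, and 6.03 FPKM. Genotype, region sampled, and the proportion of muscle cannot be told apart in these 6 libraries. Among the Gm31629-/- mice, transcripts of 4 Y-linked genes were found in mouse 1 and in none of the other 5 libraries, whereas the methods describe male mice. Xist, a transcript of female cells, was above 1 FPKM in 5 libraries. Where leaving out mouse 1 moved a difference of the 10 genes by over 1.5 times, the value without it is given too.

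**Figure D1:**
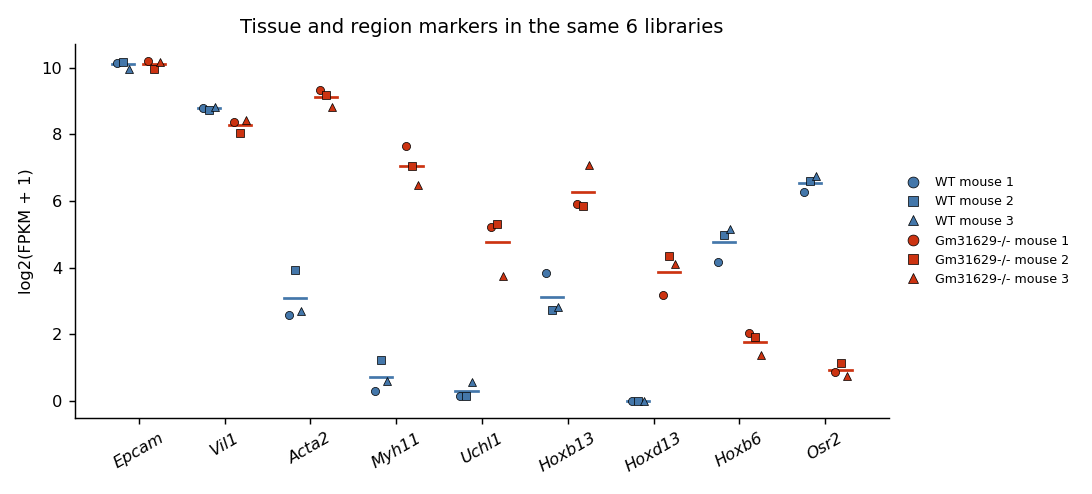
Levels of epithelial (Epcam, Vil1), muscle (Acta2, Myh11), neuronal (Uchl1), distal (Hoxb13, Hoxd13), and proximal (Hoxb6, Osr2) marker genes as log2(FPKM + 1) on the vertical axis, one symbol per mouse and a bar at the group mean. Epcam overlapped between the genotypes, whereas Acta2, Myh11, Uchl1, and Hoxd13 lay higher, and Hoxb6 and Osr2 lower, in all 3 Gm31629-/- mice.

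The largest difference among the 10 genes belonged to the proton pump. Atp12a (ENSMUSG00000022229, chr14:56365068-56388550, GRCm38, plus strand) stood at 3.54, 2.30, and 2.66 FPKM in WT mice and at 154, 254, and 295 FPKM in Gm31629-/- mice. All 3 Gm31629-/- mice were far above all 3 WT mice, with the lowest of the former 43.4 times the highest of the latter. The WT mean of 2.83 ± 0.639 FPKM stood against 234 ± 72.9 FPKM in Gm31629-/- mice (SD, n = 3 each), an 82.7-fold difference, and leaving out any 1 Gm31629-/- mouse gave 71.9- to 96.9-fold. These levels rested on 166 to 263 fragments per WT library and 11347 to 21787 per Gm31629-/- library. Relative to Epcam in the same library, Atp12a amounted to 0.257% ± 0.0568 in WT mice and to 21.4% ± 7.25 in Gm31629-/- mice (SD, n = 3).

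Part of the Atp12a exon sequence, 13.87% of its bases, is shared with Gm10873, a gene on the opposite strand, and the library kit does not mark strand. Gm10873 itself was listed at no more than 0.0197 FPKM in WT mice and at 1.00, 0.741, and 0.926 FPKM in Gm31629-/- mice, levels under 1% of those of Atp12a.

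The 3 ENaC subunits were all higher in Gm31629-/- mice, but by very different factors. Scnn1g (ENSMUSG00000000216, chr7:121734479-121768475, plus strand), the gamma subunit, stood at 0.163, 0.186, and 0.160 FPKM in WT mice, from 9, 10, and 9 fragments, and at 9.52, 6.61, and 4.51 FPKM in Gm31629-/- mice, from 524, 365, and 248 fragments. Means (± SD, n = 3) of 0.169 ± 0.0141 FPKM for WT and 6.88 ± 2.51 FPKM for Gm31629-/- were 40.6-fold apart, and the lowest Gm31629-/- mouse was 24.3 times the highest WT mouse. Gamma subunit transcripts were thus close to the limit of detection in WT mice and readily counted in each Gm31629-/- mouse.

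Scnn1b (ENSMUSG00000030873, chr7:121865038-121918514, plus strand), the beta subunit, stood at 4.89, 3.71, and 3.68 FPKM in WT mice and at 18.7, 5.72, and 9.78 FPKM in Gm31629-/- mice. Its means were 4.09 ± 0.688 and 11.4 ± 6.63 FPKM, 2.78-fold apart, and 1.89-fold apart without Gm31629-/- mouse 1. Scnn1a (ENSMUSG00000030340, chr6:125320659-125344943), the alpha subunit, stood at 35.5, 26.1, and 24.3 FPKM in WT mice and at 79.2, 37.3, and 84.7 FPKM in Gm31629-/- mice, with means of 28.7 ± 5.99 and 67.1 ± 25.9 FPKM (SD, n = 3), 2.34-fold apart. The groups did not overlap for either gene, but the gap was narrow: the lowest Gm31629-/- mouse, mouse 2 in both, exceeded the highest WT mouse by factors of 1.17 (Scnn1b) and 1.05 (Scnn1a).

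Within each library the makeup of the channel transcripts differed as well. The summed ENaC level averaged 32.9 ± 6.67 FPKM for WT and 85.3 ± 31.2 FPKM for Gm31629-/-. The gamma subunit accounted for 0.401% to 0.618% of that sum in WT mice and for 4.56% to 13.3% in Gm31629-/- mice, whereas the beta subunit accounted for 12.5% ± 0.511 and 12.9% ± 3.95 (SD, n = 3). The ratio of beta to gamma was 19.99 to 30.04 in WT mice and 0.865 to 2.17 in Gm31629-/- mice, so that the 2 transcripts were of similar abundance only in the latter. A ratio of 2 genes within a library does not depend on how that library was scaled. The alpha to beta ratio, 6.98 ± 0.327 and 6.47 ± 2.21, showed no such separation.

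**Figure D2:**
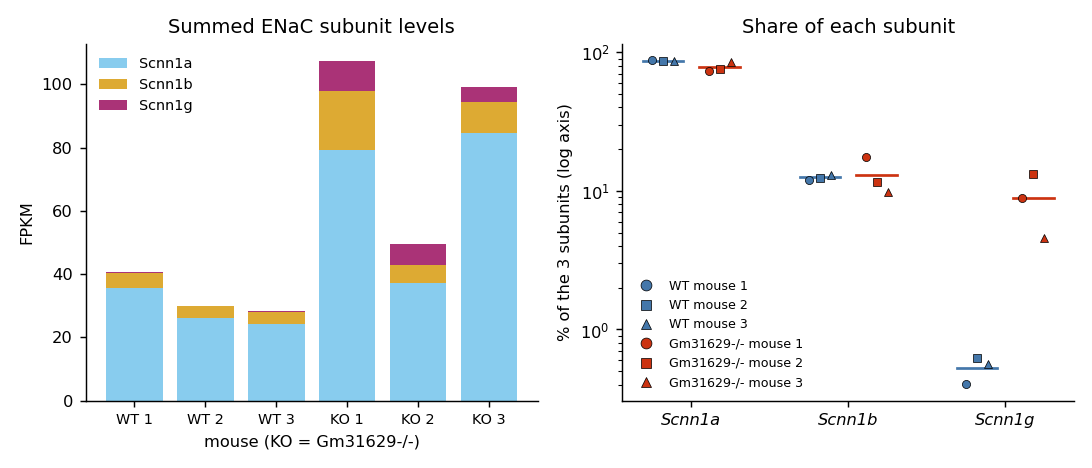
Left, levels of the ENaC subunits in FPKM stacked for each of the 6 mice (KO, Gm31629-/-). Right, share of each subunit in the summed level in percent on a log axis, one symbol per mouse and a bar at the group mean. The gamma share lay under 1% in every WT mouse and above 4% in every Gm31629-/- mouse, whereas the beta shares overlapped.

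Scnn1g and Scnn1b lie on the same strand of chromosome 7, with 96562 bases between the end of the former and the start of the latter, and their fold differences were 40.6 and 2.78. The 250 bases before each annotated start are shown because these neighbouring genes encode subunits of 1 channel but differed between the genotypes by unlike factors. They were taken from RefSeq (GRCm38.p6), where 5 of the 10 genes had an entry (Scnn1b, Scnn1g, Slc26a3, Slc9a3, and Cftr). The Scnn1g stretch is chr7:121734229-121734478 and the Scnn1b stretch chr7:121864788-121865037, both plus strand and printed 5′ to 3′, and capitals mark the letters of a CDX site.
Scnn1g: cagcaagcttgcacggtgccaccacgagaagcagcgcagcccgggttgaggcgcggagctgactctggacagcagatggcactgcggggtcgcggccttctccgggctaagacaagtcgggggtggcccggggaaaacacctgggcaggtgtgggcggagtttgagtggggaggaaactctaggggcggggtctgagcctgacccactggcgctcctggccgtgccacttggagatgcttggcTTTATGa
Scnn1b: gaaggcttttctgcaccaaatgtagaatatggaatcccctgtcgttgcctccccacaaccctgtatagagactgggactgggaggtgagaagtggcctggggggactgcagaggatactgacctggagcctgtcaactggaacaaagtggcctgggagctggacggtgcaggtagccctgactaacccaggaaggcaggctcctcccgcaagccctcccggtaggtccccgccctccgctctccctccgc
GC content was 65.2% for Scnn1g and 60.8% for Scnn1b. The letters TTTATG, a core bound by CDX homeobox factors of the intestine, begin 7 bases before the Scnn1g start, and on either strand they were found in 10.8% of 32851 RefSeq mouse promoters cut to the same length. TGTTCT, a core of the sites of the mineralocorticoid and glucocorticoid receptors, was in neither stretch nor in those of Slc26a3, Slc9a3, and Cftr, against 16.1% of all promoters. TATAAA, whose reverse complement shares 5 letters with TTTATG, was found in the Slc26a3 stretch alone among the 5, beginning 30 bases before its start, against 12.4% of all promoters. These are matches of letters within short windows and not measurements of binding. Cdx1 and Cdx2, which encode CDX factors, averaged 231 and 224 FPKM in WT mice and 103 and 36.2 FPKM in Gm31629-/- mice. Both were lower in every Gm31629-/- mouse, and their part in the Scnn1g difference was not tested.

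The transporters of electroneutral absorption overlapped between the genotypes and were spread widely among Gm31629-/- mice. Slc9a3 (ENSMUSG00000036123, chr13:74121457-74169442) stood at 106, 80.5, and 121 FPKM in WT mice and at 314, 23.9, and 57.8 FPKM in Gm31629-/- mice. Mouse 1 was above all WT mice and mice 2 and 3 were below all of them, so that the means, 103 ± 20.6 and 132 ± 158 FPKM (SD, n = 3), described no single Gm31629-/- mouse. The ratio of means was 1.28, yet the mean difference on the log2(FPKM + 1) scale was -0.40, and without mouse 1 the ratio was 0.398. Slc9a2 (ENSMUSG00000026062, chr1:40680574-40769273) stood at 82.3, 97.1, and 105 FPKM in WT mice and at 116, 31.9, and 64.0 FPKM in Gm31629-/- mice, with means of 94.7 ± 11.4 and 70.5 ± 42.2 FPKM. The same order of the 3 Gm31629-/- mice, 1 above WT and 2 below, was found for Slc9a2 on a smaller scale. When libraries were scaled to the epithelial markers, the log2 differences of both exchangers turned positive, at 0.21 for Slc9a3 and 0.01 for Slc9a2. The same scaling put Epcam at 0.63, Cdh1 at 0.58, and the median of all tested genes at 0.62. Both exchangers thus lay under that general shift.

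Slc26a3 (ENSMUSG00000001225, chr12:31390871-31473917), mutated in congenital chloride diarrhea, stood at 49.5, 36.8, and 19.0 FPKM in WT mice and at 155, 14.7, and 129 FPKM in Gm31629-/- mice. Mice 1 and 3 were above the WT range and mouse 2 was below it. The means of 35.1 ± 15.3 and 99.5 ± 74.6 FPKM (SD, n = 3) were 2.84-fold apart. Without mouse 1, 2, or 3 they were 2.05-, 4.05-, or 2.41-fold apart. Slc26a2 (ENSMUSG00000034320, chr18:61192919-61211612, minus strand) stood at 47.3, 54.5, and 39.5 FPKM in WT mice and at 120, 18.3, and 95.2 FPKM in Gm31629-/- mice. This is the same order as for Slc26a3, and the means of 47.1 ± 7.49 and 77.7 ± 52.9 FPKM were 1.65-fold apart. The ratio of Slc26a2 to Slc26a3 overlapped, at 1.51 ± 0.562 in WT mice and 0.920 ± 0.286 in Gm31629-/- mice.

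Of the secretory pair, Cftr alone was lower in every Gm31629-/- mouse. Cftr (ENSMUSG00000041301, chr6:18170687-18322768) stood at 8.44, 6.51, and 5.91 FPKM in WT mice and at 4.95, 0.614, and 1.63 FPKM in Gm31629-/- mice, from 88 fragments in the lowest library. The means were 6.95 ± 1.32 and 2.40 ± 2.27 FPKM (SD, n = 3), 2.90-fold apart, or 6.19-fold without Gm31629-/- mouse 1, but the highest Gm31629-/- mouse came within a factor of 1.20 of the lowest WT mouse. With libraries scaled to the epithelial markers, the log2 difference of Cftr was -0.97, against -1.43 on the deposited scale. Slc12a2 (ENSMUSG00000024597, chr18:57878678-57946821) stood at 17.1, 11.9, and 10.8 FPKM in WT mice and at 36.2, 13.3, and 12.0 FPKM in Gm31629-/- mice. Only mouse 1 was above the WT range, the means were 13.3 ± 3.35 and 20.5 ± 13.6 FPKM, 1.54-fold apart, and without mouse 1 the ratio was 0.954.

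Ratios within a library set Cftr apart from the other chloride transporters. Slc12a2 exceeded Cftr by 1.90 ± 0.113 in WT mice and by 7.31 to 21.6 in Gm31629-/- mice. Slc26a3 exceeded Cftr by 3.21 to 5.86 in WT mice and by 23.9 to 79.2 in Gm31629-/- mice. Neither ratio overlapped between the genotypes, so the absorptive exchanger and the secretory cotransporter were each higher relative to the secretory channel in all 3 Gm31629-/- mice. In bulk tissue, fewer cells of a type and less RNA per cell cannot be told apart, here or for any gene above.

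**Figure D3:**
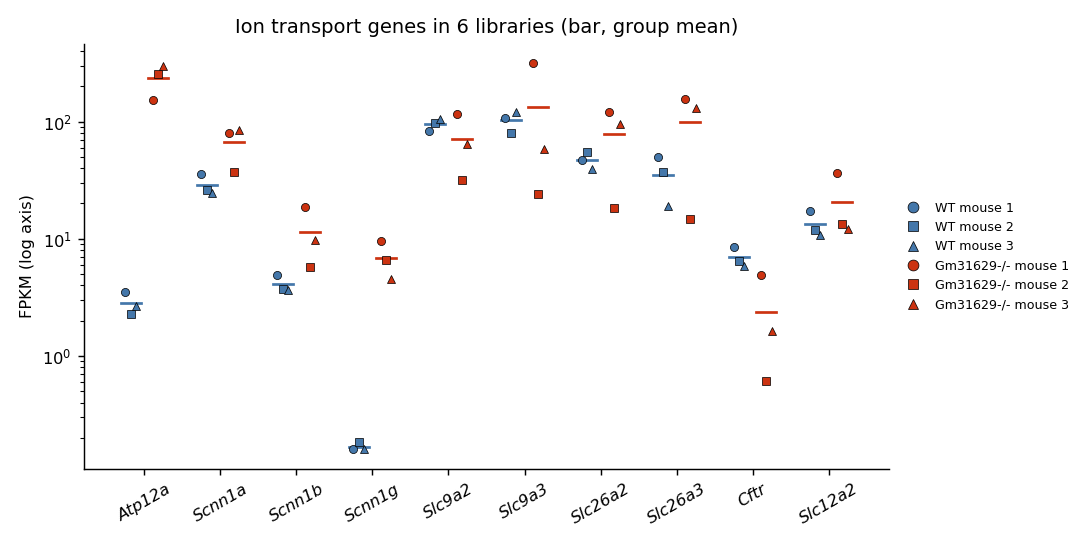
FPKM of the 10 genes on a log axis, one symbol per mouse and a bar at the group mean, WT in blue and Gm31629-/- in red. Atp12a and the ENaC subunits lay higher and Cftr lower in all 3 Gm31629-/- mice, and the other 5 genes overlapped.

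With a limma fit over all tested genes, a gene counted as called where the adjusted p was under 0.05 and the log2 fold change lay past 1 in size. Atp12a, Scnn1a, Scnn1b, and Scnn1g met this rule as higher and Cftr as lower, 4 and 1 of 10 genes, where 18.4% of the 14657 tested genes were called higher and 4.64% lower. The same 5 genes were those whose libraries did not overlap, and over all tested genes 36.3% had every Gm31629-/- library above WT and 21.5% every one below. These genes were selected on this very contrast, so nothing is read from the counts. The log2 fold changes were 5.90 for Atp12a, 2.70 for Scnn1g, 1.15 for Scnn1b, 1.13 for Scnn1a, 1.02 for Slc26a3, 0.44 for Slc12a2, 0.35 for Slc26a2, -0.40 for Slc9a3, -0.60 for Slc9a2, and -1.43 for Cftr. Because 1 FPKM was added before taking logs, these values understate the difference of genes at low levels such as Scnn1g. The median of the 10 was 0.73, against 0.15 for all tested genes.

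Which of the 10 met the rule shifted with the mice in the fit, given here as a description. Without Gm31629-/- mouse 1, Slc9a2 and Slc9a3 met it as lower beside Cftr, and Scnn1a and Scnn1b no longer met it. Without Gm31629-/- mouse 2, Slc26a3 and Slc26a2 met it as higher beside Atp12a and the ENaC subunits, and Cftr no longer met it. Without Gm31629-/- mouse 3, WT mouse 2, or WT mouse 3, Atp12a and Scnn1g were the genes that met it, and without WT mouse 1 these and Scnn1a. Slc12a2 and Slc26a2 turned negative without Gm31629-/- mouse 1, at log2 fold changes of -0.04 and -0.15, and Slc9a3 turned positive without mouse 2, at 0.41. With median-ratio scaling Scnn1a and Scnn1b did not meet the rule, at 0.87 and 0.93, and without the filter on low values neither did these 2 nor Cftr. Cftr also missed it with libraries scaled to the epithelial markers.

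The spread among Gm31629-/- mice followed an order shared by most of the 10 genes. The ratio of the highest to the lowest mouse was wider in Gm31629-/- than in WT mice for all 10, reaching 13.1 for Slc9a3 and 10.5 for Slc26a3. A wider spread was not particular to them. Over all tested genes, pairs of Gm31629-/- libraries correlated at 0.915 to 0.937 and pairs of WT libraries at 0.979 to 0.985. The share of all tested genes with a wider ratio was not computed. Mouse 1 was the highest of the Gm31629-/- mice for 8 genes and mouse 3 for Atp12a and Scnn1a. The share of all tested genes highest in each mouse was not computed. Mouse 1 was also the mouse with Y-linked transcripts, and the part of sex in this order was not tested. Mouse 2 was the lowest for 7 genes, mouse 3 for Scnn1g and Slc12a2, and mouse 1 for Atp12a. Over 14461 tested genes above 0 in these 3 libraries, mouse 2 was the lowest for 23.9%, mouse 1 for 31.7%, and mouse 3 for 44.5%. The 5 markers of absorptive colonocytes summed to 3583, 1367, and 5680 FPKM in Gm31629-/- mice 1, 2, and 3 and to between 5046 and 6501 FPKM in WT mice. Car1 carried most of the WT sum, with means of 4692 FPKM in WT and 1249 FPKM in Gm31629-/- mice, and was called lower. Car4, Aqp8, and Ceacam20 went the other way, at log2 fold changes of 1.31, 1.02, and 0.59. Car2 was at -0.42, and none of these other markers was called. Mouse 2 was the lowest by these markers as well, but mouse 3 and not mouse 1 was the highest, and their part in the order was not tested.

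**Figure D4:**
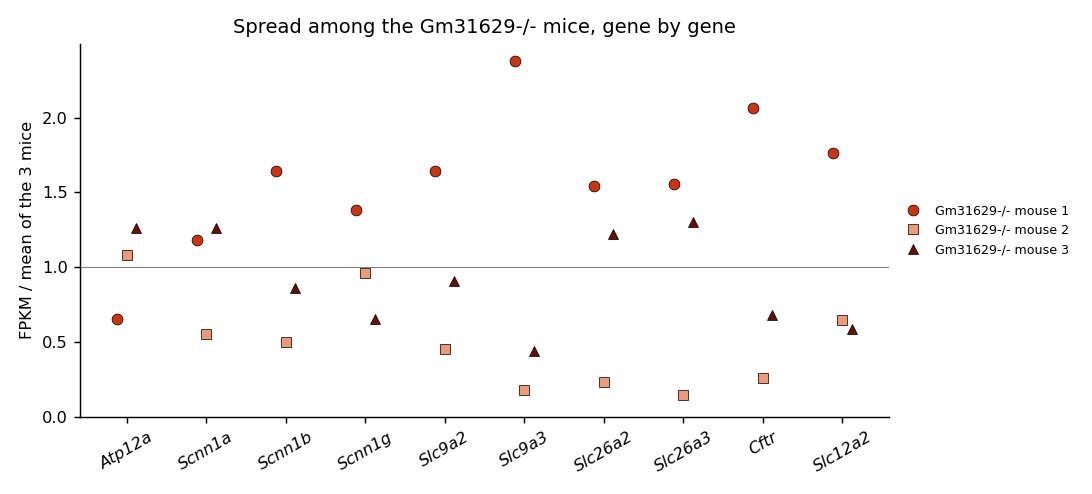
FPKM of each gene in the 3 Gm31629-/- mice divided by their mean, so that 1 is the mean of the group. Mouse 1 lay above 1 for all genes but Atp12a, and mouse 2 lay under 1 for all but Atp12a.

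Summed over the 10 genes, the level averaged 336 ± 18.0 FPKM for WT and 722 ± 301 FPKM for Gm31629-/- (SD, n = 3). NHE2 and NHE3 together made up 58.9% ± 8.01 of this sum in WT mice and 24.2% ± 16.1 in Gm31629-/- mice, where the shares of mice 1, 2, and 3 were 42.7%, 13.7%, and 16.1% and the mean without mouse 1 was 14.9%. Atp12a made up 0.839% ± 0.143 in WT mice and 39.0% ± 23.6 in Gm31629-/- mice, at 15.3%, 62.5%, and 39.1% in mice 1, 2, and 3. The most abundant transcript of the set was an NHE in each WT mouse and in Gm31629-/- mouse 1, and Atp12a in Gm31629-/- mice 2 and 3.

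Other genes of the same pathways were then examined to place the 10 among their partners. Of 147 such genes, grouped by function into 9 lists, 143 were in the table and 110 passed the low-level filter, of which 18 rose and 14 fell, or 29.1%, where 23.1% of all tested genes were called. Their median log2 fold change was 0.16, close to the 0.15 of all genes, and the lists differed in which way their members lay.

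Potassium channels that keep up the driving force for chloride secretion were mainly lower. Of 7 tested, 4 fell and 1 rose, with a median log2 fold change of -1.14. Kcnq1 stood at 18.6, 17.0, and 28.9 FPKM in WT mice and at 1.41, 0.927, and 2.43 FPKM in Gm31629-/- mice (log2 fold change -3.12 ± 0.28 SE, limma adjusted p = 0.00043). Kcne3, the subunit that holds the Kcnq1 channel open in the basolateral membrane, stood at 54.8, 37.7, and 48.9 FPKM in WT mice and at 9.53, 7.74, and 18.0 in Gm31629-/- mice (-1.98 ± 0.30, limma adjusted p = 0.00264). Both channel partners thus fell with no overlap, as did Kcnn4, the calcium-activated channel of the same cells, from 11.1 ± 2.37 to 2.14 ± 0.411 FPKM (limma adjusted p = 0.000682). Kcnma1, a calcium-activated potassium channel also found in smooth muscle, rose from 0.445 to 2.05 FPKM on average (limma adjusted p = 0.0196), but was called in only 1 of the 6 fits that left out a mouse, the one without Gm31629-/- mouse 3. Smooth muscle markers moved in the same direction (8 of 9 tested rose), and their part in the Kcnma1 difference was not tested.

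The receptors and kinases that switch secretion on or off also included more genes that fell than rose, 6 and 2 of 19 tested, with a median of -0.63. Guca2b, which encodes the hormone uroguanylin, fell from 39.9 ± 2.77 to 8.14 ± 9.45 FPKM (log2 fold change -2.65 ± 0.62 SE, limma adjusted p = 0.0132, and -3.47 without Gm31629-/- mouse 1). Its receptor Gucy2c, a guanylate cyclase, fell from 136 ± 13.9 to 53.2 ± 27.1 FPKM (limma adjusted p = 0.0149), and Prkg2, the kinase that acts on CFTR in answer to cyclic GMP, fell from 3.43 ± 0.87 to 0.573 ± 0.757 FPKM (limma adjusted p = 0.00913). Ligand, receptor, and kinase of this route were thus called in 1 direction, but without WT mouse 3 the adjusted p from limma was 0.0523 for Guca2b and 0.0588 for Gucy2c. Guca2a, encoding guanylin, stood at 1630 ± 138 and 1029 ± 755 FPKM and was not called (limma adjusted p = 0.202), although it was without Gm31629-/- mouse 1 (-1.58, limma adjusted p = 0.0381). Sstr1, a somatostatin receptor, fell from 12.0 ± 4.33 to 1.62 ± 0.633 FPKM (limma adjusted p = 0.00171). In the other direction, Prkacb, a catalytic subunit of protein kinase A, rose from 4.52 ± 1.45 to 13.7 ± 1.26 FPKM (limma adjusted p = 0.00277), and P2ry4, a nucleotide receptor, rose from 0.220 to 1.97 FPKM (limma adjusted p = 0.0388), a call kept in 1 of 6 fits that left out a mouse, without Gm31629-/- mouse 2.

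Genes that govern ENaC showed few differences. Of 20 tested regulators, 1 rose and 1 fell, and the median log2 fold change was -0.05. Nr3c2, the mineralocorticoid receptor that aldosterone binds, stood at 18.6 ± 2.68 and 16.2 ± 5.86 FPKM (limma adjusted p = 0.491). Hsd11b2, the enzyme that shields this receptor from corticosterone, stood at 333, 34.4, and 217 FPKM in the Gm31629-/- mice, against 223 ± 10.9 in WT mice (limma adjusted p = 0.472). Sgk1, a kinase induced by aldosterone and glucocorticoids that keeps ENaC at the surface, stood at 14.8, 49.5, and 48.5 FPKM in WT mice and at 204, 53.4, and 64.0 FPKM in Gm31629-/- mice. All Gm31629-/- values for Sgk1 were above the WT values, yet the difference did not pass the test (log2 fold change 1.40 ± 0.62 SE, limma adjusted p = 0.106). Tsc22d3, a glucocorticoid-induced gene encoding GILZ, was the regulator that rose, from 9.49 ± 0.61 to 25.1 ± 10.5 FPKM (1.25 ± 0.26, limma adjusted p = 0.00916), although without Gm31629-/- mouse 1 its log2 fold change was 0.94. Wnk4, a kinase that acts on chloride cotransporters and ENaC, was the regulator that fell, from 11.0 ± 2.21 to 5.01 ± 1.99 FPKM (-1.03 ± 0.27, limma adjusted p = 0.0195), and it was not called without WT mouse 2 or 3 or Gm31629-/- mouse 2 or 3, where its log2 fold change was -0.81 to -1.01 and limma's adjusted p 0.0434 to 0.0776. The ubiquitin ligase Nedd4l, which removes ENaC from the membrane, and the channel-activating protease Prss8 were not called, at log2 fold changes of 0.23 and -0.15 (limma adjusted p = 0.446 and 0.566).

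Of the 9 lists, that of the proton and sodium pumps held the largest share of genes that rose. Of 12 tested ATPase subunits and FXYD proteins, 7 rose, and the median log2 fold change was 2.37, or 2.33 with Fxyd7, which was at 0 in WT mice, set to the limit that 3 fragments allow. Atp1b1, the beta subunit of the sodium/potassium ATPase in epithelia, was not among them, at 472 ± 24.9 and 664 ± 280 FPKM (log2 fold change 0.39, limma adjusted p = 0.369). The 3 with the largest log2 fold changes of FPKM + 1 are known from nerve and muscle as well: Fxyd6 from 0.239 to 13.8 ± 6.38 FPKM (limma adjusted p = 0.000641), Fxyd1 from 0.225 to 9.63 ± 2.28 FPKM (limma adjusted p = 0.00022), and Atp1b2 from 0.134 to 7.42 ± 3.38 FPKM (limma adjusted p = 0.000578). With 0.1 added in place of 1, Fxyd7 came before Fxyd6, at log2 fold changes of 5.75 and 5.24. Neuronal and glial markers rose in 11 of 12 tested genes and smooth muscle markers in 8 of 9, and their part in these pump differences was not tested. Fxyd4, a pump regulator of the distal colon and collecting duct, stood at 0.0276, 0.0568, and 0 FPKM in WT mice and at 1.78, 0.831, and 24.5 FPKM in Gm31629-/- mice, and was not called (log2 fold change 2.30 ± 0.89 SE, limma adjusted p = 0.0727). Without Gm31629-/- mouse 2 or mouse 3 it was, with adjusted p of 0.0327 and 0.00882 from limma.

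Among the other sodium/proton exchangers and their scaffolds, 2 of 10 tested genes rose and 1 fell, with a median of -0.26. Slc9a3r2, the scaffold NHERF2, rose from 5.73 ± 0.487 to 18.7 ± 7.06 FPKM (log2 fold change 1.48 ± 0.29 SE, limma adjusted p = 0.00688), and Slc9a9, an endosomal exchanger, from 0.224 to 1.59 ± 0.576 FPKM (limma adjusted p = 0.0058, with a log2 fold change of 0.90 without Gm31629-/- mouse 2). Pdzd3, a scaffold that binds NHE3 and Gucy2c, fell from 19.9 ± 3.12 to 7.62 ± 3.39 FPKM (-1.35 ± 0.31, limma adjusted p = 0.013, but 0.0524 without WT mouse 3, and short of the fold limit without Gm31629-/- mouse 2). The abundant scaffold Slc9a3r1 was not called, at 327 ± 32.6 and 257 ± 77.3 FPKM (limma adjusted p = 0.237), and Pdzk1 was at 0 in all WT libraries and too low in the others to be tested.

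Anion exchangers outside the 10 genes gave 1 that rose and 1 that fell of 8 tested, with a median of 0.32. Slc4a2, a basolateral chloride/bicarbonate exchanger, fell from 44.2 ± 8.06 to 15.8 ± 6.33 FPKM (log2 fold change -1.50 ± 0.32 SE, limma adjusted p = 0.00897), with 13.7% of its exon bases shared with genes on the other strand. Slc4a3, its relative in excitable tissues, rose from 0.125 to 2.60 FPKM on average (limma adjusted p = 0.00164). Neither Slc26a6, an apical exchanger, nor the sodium bicarbonate cotransporter Slc4a4 was called, with log2 fold changes of 0.40 and -0.64 (limma adjusted p = 0.0765 and 0.149).

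Of 11 tested genes for chloride channels other than CFTR and for CLCA proteins, 2 rose, a share close to the 18.4% called higher over all genes, and the median was 0.78. Clca1, a secreted goblet cell product that raises calcium-activated chloride currents, stood at 583, 475, and 311 FPKM in WT mice and at 3397, 2696, and 4473 FPKM in Gm31629-/- mice (log2 fold change 2.96 ± 0.30 SE, limma adjusted p = 0.000601). Goblet cell markers, 8 genes, summed to 4518 to 5613 FPKM in WT mice and 9841 to 13688 in Gm31629-/- mice, with 3 that rose and 1 that fell. Zg16 and Tff3 made up most of that rise, from means of 1570 and 964 to 6719 and 3186 FPKM. Agr2, Spdef, and Atoh1 were lower in every Gm31629-/- mouse, and Muc2 and Spink4 had log2 fold changes of -0.26 and -0.53. The part of goblet cell markers in the Clca1 difference was not tested. Ano6, a scramblase and channel of many cell types, rose from 4.94 ± 0.174 to 15.9 ± 5.86 FPKM (limma adjusted p = 0.00353), whereas Ano1 stood at 6.52 ± 0.32 and 6.50 ± 1.36 FPKM (limma adjusted p = 0.941). Best2, a bicarbonate channel of colonic goblet cells, stood at 57.6, 3.25, and 17.9 FPKM in Gm31629-/- mice and 3.25 ± 0.904 in WT mice (limma adjusted p = 0.0907, and 0.00531 without Gm31629-/- mouse 2), and Clca4a, whose reads may be split with the near-identical Clca4b, was not called (limma adjusted p = 0.322, and 0.0377 without Gm31629-/- mouse 1).

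Of the other cation-chloride cotransporters, 1 of 5 tested rose and 1 fell, with a median near 0. Slc12a4, the potassium chloride cotransporter KCC1, rose from 0.573 to 6.25 ± 3.22 FPKM (limma adjusted p = 0.00317), and Slc12a8 fell from 29.8 ± 4.08 to 6.15 FPKM on average (log2 fold change -2.13 ± 0.23 SE, limma adjusted p = 0.00076). The vacuolar proton ATPase, which acidifies organelles and, in specialised cells, the lumen, differed little beside Atp12a. Of its 18 tested subunits, 14 had all Gm31629-/- libraries above WT, where 36.3% of all tested genes did, but only Atp6v0e2 was called, from 6.69 ± 1.23 to 19.3 ± 2.48 FPKM (limma adjusted p = 0.00142), and the median log2 fold change was 0.36.

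**Figure D5:**
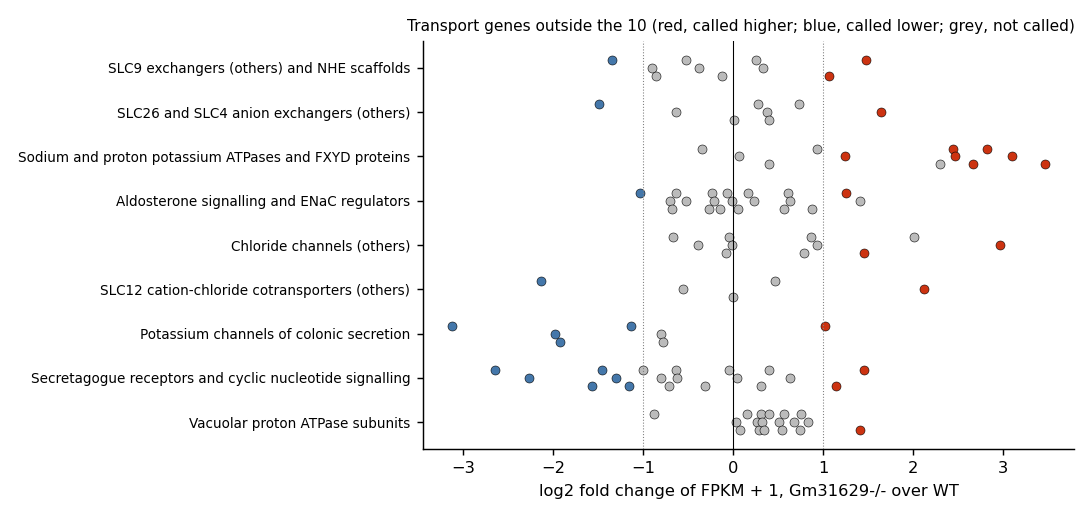
Log2 fold changes of FPKM + 1, Gm31629-/- over WT, for the 110 tested genes of the same transport pathways outside the 10, one point per gene and one row per list, in red or blue where limma called them. Potassium channels and secretagogue signalling together held 10 of the 14 points called lower, and the ATPase and FXYD list held 7 of the 18 called higher.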

How the data were processed

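The authors deposited FPKM values of 27546 genes with 1 column per mouse. The submitters' processing notes name HISAT2 2.1.0 (an aligner), HTSeq 0.6.0 (a read counter), and GRCm38. The annotation is not given in the sources used here. The methods speak of pooled RNA from 3 mice per genotype, but each mouse has its own column and was taken as 1 replicate, so p-values measure the spread between these libraries. Gene names, locations, and exon lengths came from GENCODE M21 (27488 identifiers matched). Fragments were recovered from the FPKM steps, with 96.3% to 97.2% of values up to 20 fragments within 0.1 of a whole number, giving 18005800 to 18795000 mapped fragments per library. Limits set from fragments cover counting error only.

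The study used DEGseq. Here log2(FPKM + 1) values were fitted with limma 3.58.1 (R 4.3.3; trended eBayes) for the 14657 genes whose mean FPKM reached 0.5, with Benjamini-Hochberg adjustment over all of them, and was tested on simulated data. The 10 genes and all lists were chosen with earlier results of these data known. Beyond the 10, up to 3 called genes per list and direction by size of the fold change and 20 genes of known role were chosen for naming, some of which are not reported here; Hox genes and other markers define the tissue. Alternatives were another pseudocount, other filters and scalings, no trend, a replicate block, voom on recovered fragments, and each mouse left out. Promoters came from RefSeq through a table that holds 5 of the 10. Gm31629 itself was not analysed here. Figures were drawn with matplotlib 3.10.9.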

Additional observations from a re-analysis of the deposited data

How the results depend on the processing

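Of the 10 genes, 4 were called higher and 1 lower, and these counts became 2 and 0 without the filter on low values. They became 2 and 1 with median-ratio scaling. A mean FPKM of at least 5 left 0 called lower, as Cftr and Scnn1g were no longer tested, and scaling to epithelial markers also left 0 lower. The 10 genes were picked with this contrast known, so their counts are a description and not a test. Among the pathway genes, the counts of 18 higher and 14 lower became 8 higher with the mean FPKM of at least 5, which tests fewer genes, and 38 higher and 7 lower with epithelial scaling. Over all genes, 2704 were called higher and 680 lower; these were 956 higher with the mean FPKM of at least 5, 1217 lower with median-ratio scaling, and 4495 higher and 243 lower with epithelial scaling. The share of calls that were higher was 79.9%, against 66.0%, 64.7%, and 94.9% in these 3 settings. Scaling moved the median log2 fold change of all genes from 0.15 to -0.05 (median ratio) and 0.62 (epithelial markers). Leaving out a mouse gave 2 to 6 higher and 0 to 3 lower among the 10, 16 to 19 and 10 to 15 among the pathway genes, and 2285 to 2892 and 513 to 766 over all genes. The pathway genes Pdzd3, Slc4a2, Wnk4, and Gucy2c were not called with epithelial scaling, nor were Slc9a9 and Kcnma1 with median-ratio scaling, and Fxyd4, Best2, and Sgk1 were called with epithelial scaling.

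The pseudocount of 0.1, TPM scaling, limma without a trend, and voom on recovered fragments called the same 5 of the 10 genes. On the log2 scale the fold change of Scnn1g was 4.63 and that of Atp12a 6.29 with the pseudocount of 0.1. With the replicate number as a block, 4 and 1 of the 10, 18 and 14 of the pathway genes, and 2709 and 648 of all genes were called higher and lower. Mice of the same number were not paired by the labels, and their deviations from the group means correlated at 0.04, -0.11, and 0.01. Groups of 3 mice per genotype, the difference in region and muscle content, and 1 FPKM added to low values limit what these counts can show.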
